A study of Homo sapiens with 15 samples.

Results

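The comparison described here set CARD14 knockout (KO) HaCaT keratinocytes given vehicle against HaCaT keratinocytes labelled CARD14 WT/WT and given mepazine. Its members were chosen by sample title: the 3 libraries of CARD14 KO cells under vehicle (DMSO) and the 3 libraries of CARD14 WT/WT cells under 10 µM mepazine, 6 of the 15 libraries sequenced. HaCaT is an immortalised line of human keratinocytes. All cells were grown in low-glucose DMEM with fetal bovine serum, and both mepazine and vehicle were given for 24 h, starting the day after plating. The 3 libraries of CARD14 WT/WT cells under vehicle are used beside them as the common untreated starting point. The study also held R820W cells, which enter here only through the gene filter, the scaling factors and the shared estimate of the spread. Genotypes were made by CRISPR, and the labels give neither the position of the edit nor how many edited lines stand for the knockout. The compared groups differ in genotype and in treatment at once, so within the comparison genotype and mepazine cannot be told apart. Each group is therefore also given against WT vehicle.

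CARD14 is a scaffold protein of keratinocytes. When active it gathers BCL10 and MALT1, and this complex passes the signal to the IKK kinases that release NF-kB. MALT1 is also a protease that cuts brakes on NF-kB such as A20 (TNFAIP3), CYLD and RELB, and mepazine, a phenothiazine, inhibits this protease. The comparison thus placed loss of the scaffold beside a drug against the protease that the scaffold recruits.

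The 6 libraries held 21650912 to 26974363 counts, and a count of 3 corresponded to between 0.111 and 0.139 CPM. Levels below are CPM (counts divided by the TMM-scaled library size), given in the order of libraries a, b and c. Differences are log2 fold changes of KO vehicle over mepazine-treated WT. The SE was derived as the size of the log2 fold change over the square root of F, the statistic of edgeR's quasi-likelihood test. Intervals were built from this SE. The p-values were adjusted by Benjamini-Hochberg over the 14971 genes tested. All 10 keratinocyte markers were found in every group, with summed levels of 5.50e+03 to 6.27e+03 CPM of all counts in KO and 5.29e+03 to 5.90e+03 in mepazine-treated WT. Summed markers of fibroblasts (2.40 to 2.97 against 3.66 to 5.30 CPM), melanocytes (1.25 to 1.45 against 1.64 to 2.12) and leukocytes (5.54 to 6.49 against 4.69 to 6.14) were low in both groups, with THY1, TYR, DCT, CD3E and CD8A at 0. Summed endothelial markers were 4.75 to 5.38 CPM in KO and 10.3 to 13.4 in mepazine-treated WT, most of it CDH5, while KDR and TEK were at or near 0. The part of these markers in the results was not tested. In these bulk samples, fewer cells of a type and less RNA per cell cannot be told apart. The labels do not tie the letters to cultures, so the p-values gauge no more than the spread among the samples at hand, and this spread may be technical. Genes that missed the test, and called genes that ran against most of their list, are named outside the naming rule, after their values were seen. The same holds for CHUK.

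Many genes differed between knockout cells and mepazine-treated cells. Of 14971 genes, 4859 (32.5%) passed the test, 2433 (16.3%) higher in KO and 2426 (16.2%) higher in mepazine-treated WT. Counts of called list members below are to be read beside these shares. When library totals were used without a scaling factor, the split was 1613 higher against 3421 lower in KO. Most differences were small: the median size of a called change was 0.264 on the log2 scale, and 257 genes (1.72%) differed at least 2-fold, 71 of them higher in KO and 186 lower. The values of the compared groups did not overlap for 6729 genes (44.9%). For 10754 genes (71.8%) the 95% interval of the difference lay within a 1.5-fold change either way. Against WT vehicle, KO cells had 56 called genes (0.374%), 43 higher (0.287%) and 13 lower (0.0868%), and mepazine-treated WT cells had 3588 (24.0%), 1855 higher (12.4%) and 1733 lower (11.6%). The count for KO was 22 without KO library a, and 33 and 35 without WT vehicle library b and c. These counts share the WT vehicle libraries and are given side by side only.

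**Figure D1:**
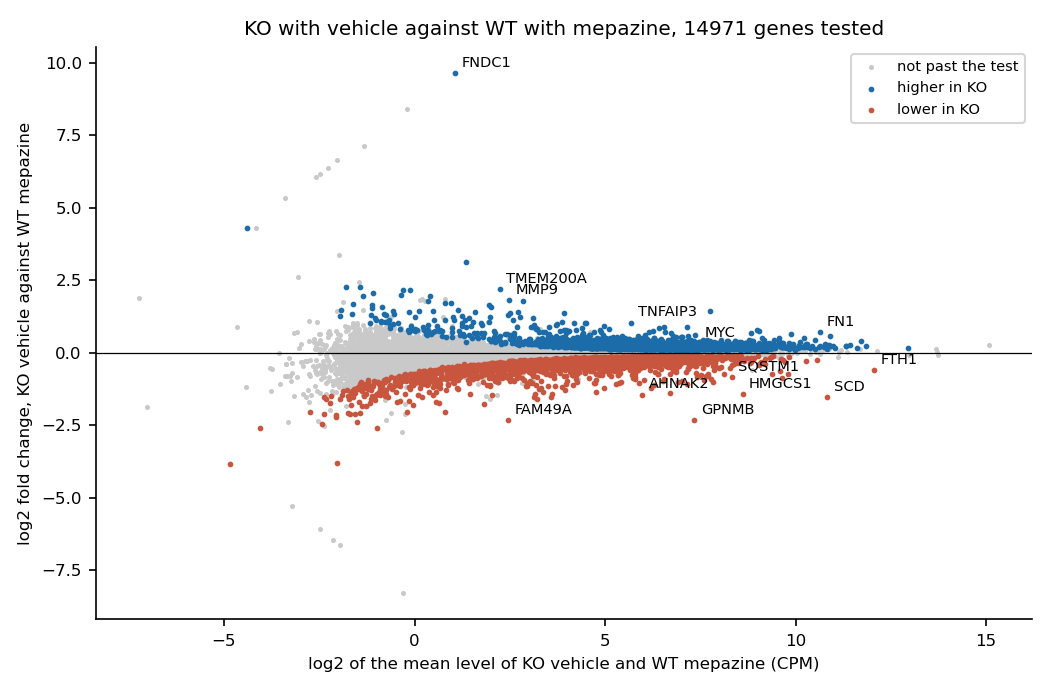
Log2 fold change of KO vehicle over mepazine-treated WT (vertical axis) against the log2 of the mean level in CPM of both groups (horizontal axis) for the 14971 genes tested. Genes past the test lie on both sides of 0, 2433 higher and 2426 lower in KO, and most of them within a small distance of it. The point of FNDC1 depends on the prior count of the fit, since its mepazine libraries are at 0.

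Neither CARD14 mRNA nor that of its direct partners gave a called difference. CARD14 mRNA was low in every library, at 1.80, 2.01 and 1.53 CPM in KO, 1.29, 1.55 and 1.56 in mepazine-treated WT and 1.67, 1.13 and 1.76 in WT vehicle. The groups overlapped, and the difference of 0.28 ± 0.212 (95% interval -0.16 to 0.71) did not pass the test (edgeR, adjusted p = 0.343). A level of mRNA does not check an edit that leaves the transcript in place, so the knockout labels have no check here. MALT1 and BCL10, the partners of CARD14, differed by 0.12 (95% interval 0.01 to 0.23, edgeR adjusted p = 0.103) and -0.09 (95% interval -0.19 to 0.02, edgeR adjusted p = 0.201). Of the 15 members of the list of CARD scaffolds, TRAF and IKK proteins, 5 were higher in KO and 1 was lower, with a median of 0.06 beside -0.03 for all genes tested, and each difference was small. Among the called members were CARD10 (0.19 ± 0.0506), a relative of CARD14, the adaptors TRAF2 (0.26 ± 0.0634) and TRAF3 (0.22 ± 0.0535), and the kinase genes CHUK (0.18 ± 0.0544) and IKBKB (-0.23 ± 0.0657). IKBKB lost its call without KO library a (-0.19, edgeR adjusted p = 0.0523). CHUK lost its call without KO library b (0.16, edgeR adjusted p = 0.0514) or mepazine-treated WT library c (0.15, edgeR adjusted p = 0.0775). With library totals and no scaling factor, 3 members of the list were higher and 3 lower.

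NF-kB target genes stood higher in KO than in mepazine-treated WT. Of 32 tested, 15 were higher, 4 were lower and 13 did not pass, with a median difference of 0.25. TNFAIP3, which encodes the inhibitor A20, measured 74.1, 70.6 and 64.0 CPM in KO against 33.1, 37.2 and 30.9 in mepazine-treated WT. Every KO library lay above every mepazine library, and the difference was 1.04 ± 0.0700 (edgeR adjusted p = 7.54e-11). WT vehicle libraries held 62.4, 64.3 and 66.6 CPM of TNFAIP3, in reach of KO and clear of the mepazine libraries. The neutrophil attractant IL8 (CXCL8) was at 12.8, 11.3 and 9.06 CPM in KO and 2.51, 4.04 and 3.08 in mepazine-treated WT, again with no overlap, a difference of 1.79 ± 0.148 (edgeR adjusted p = 4.74e-09). CXCL1, another neutrophil attractant, differed by 1.39 ± 0.128, the alarm cytokine IL1B by 0.82 ± 0.0648 and RELB, a subunit of NF-kB, by 0.80 ± 0.0840. Against WT vehicle these 5 genes differed by 0.08 to 0.17 in KO, none past the test, and by -1.71 to -0.65 in mepazine-treated WT, all past it. The 4 members lower in KO, listed whole, were REL (-0.39), TNFAIP2 (-0.33), CFLAR (-0.32) and IRF1 (-0.18). The call of IRF1 was lost without KO library a or b or mepazine-treated WT library a or c (-0.18 to -0.11, edgeR adjusted p = 0.0985 to 0.221). TNF and IL6 were low, at 0.955 to 1.67 and 0.229 to 0.638 CPM in KO, and did not pass the test. Of 11 genes whose proteins MALT1 cuts, 3 were called, a share below the 32.5% of all genes tested. Of these, TNFAIP3 and RELB are also NF-kB targets. RC3H1 (-0.19 ± 0.0634), which encodes the RNA-binding protein Roquin-1, lost its call without KO library c or mepazine-treated WT library a or b (-0.19 to -0.15, edgeR adjusted p = 0.0562 to 0.11).

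The promoter stretch of TNFAIP3 around a match to the NF-kB motif GGGANTTCC is shown because TNFAIP3 led the NF-kB targets by adjusted p. It is from RefSeq on GRCh38.p14, chr6:137867177-137867239, plus strand, with the match, read on the other strand, in capitals:
TNFAIP3: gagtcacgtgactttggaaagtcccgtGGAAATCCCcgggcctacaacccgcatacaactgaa
Within 250 bases before the start, on either strand, the motif was found in 3 of the 27 NF-kB targets with a RefSeq promoter (11.1%) and in 1.60% of all 27305 promoters.

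Keratinocytes release ligands of the EGF receptor to drive their own growth and repair. Of 13 ligands, receptors and inhibitors tested, 6 were higher in KO and 1, the receptor gene ERBB3 (-0.24), was lower. The call of ERBB3 was lost without KO library b (-0.19, edgeR adjusted p = 0.0656) or mepazine-treated WT library c (-0.18, edgeR adjusted p = 0.0804). The ligand genes EGF, BTC and EPGN did not pass the test. The ligand AREG measured 22.5, 23.2 and 20.5 CPM in KO and 8.34, 8.59 and 8.51 in mepazine-treated WT. The groups stood well apart, by 1.38 ± 0.0836 (edgeR adjusted p = 1.46e-12). Further ligands differed in the same direction: EREG by 1.01 ± 0.0857, HBEGF by 0.79 ± 0.0696 and TGFA by 0.71 ± 0.0554. In KO these 4 ligands differed from WT vehicle by 0.09 to 0.29, none past the test, while mepazine-treated WT differed by -1.09 to -0.58. The receptor EGFR itself did not pass (-0.11 ± 0.0461, edgeR adjusted p = 0.0634). The list of genes that answer ERK signalling through AP-1 and related factors, which holds the same ligands, had 18 of 30 members higher and 2 lower in KO, JUND (-0.36) and FOSL2 (-0.27), with a median of 0.28. FOSL1, an AP-1 subunit, was at 196, 182 and 180.3 CPM in KO, 97.1, 106 and 97.3 in mepazine-treated WT and 166, 159.7 and 156 in WT vehicle. The 3 groups did not overlap, and FOSL1 passed the test on both sides of WT vehicle, at 0.21 in KO and -0.69 under mepazine. On the KO side the call was lost without KO library a or WT vehicle library b or c (0.17 to 0.21, edgeR adjusted p = 0.103 to 0.225). FOS did not pass (-0.16 ± 0.144).

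**Figure D2:**
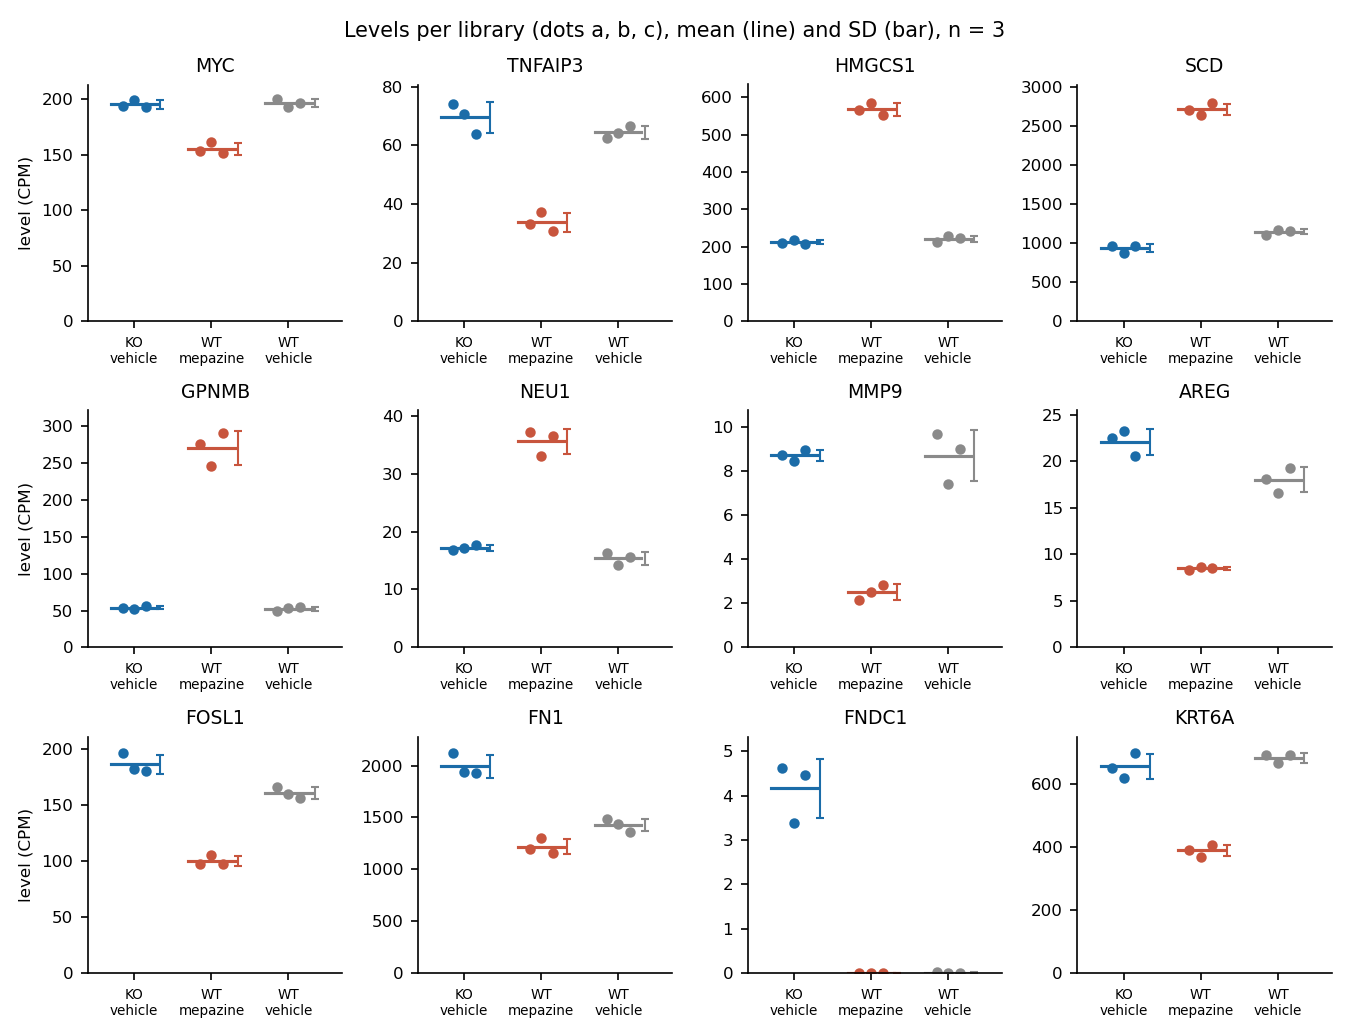
Levels in CPM of 12 genes in each library of KO vehicle, mepazine-treated WT and WT vehicle, with dots for libraries, lines for means and bars for SD (n = 3). KO and mepazine-treated WT do not overlap in any panel, and KO lies within or near the range of WT vehicle for genes such as MYC and GPNMB but not for FN1 or FNDC1.

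MYC and the genes for building ribosomes were higher in KO, almost without exception. MYC, a transcription factor that drives growth, measured 193.7, 199.7 and 192.8 CPM in KO, 153, 161 and 152 in mepazine-treated WT and 200.6, 193 and 197 in WT vehicle. KO thus overlapped with untreated WT, and mepazine-treated WT lay below both. The difference between KO and mepazine-treated WT was 0.33 ± 0.0388 (edgeR adjusted p = 2.79e-07), and KO differed from WT vehicle by -0.01 (edgeR adjusted p = 0.976). Of 59 MYC targets and ribosome biogenesis genes tested, 53 were higher in KO, none was lower and 6 did not pass, with a median of 0.32. With library totals or upper-quartile scaling 1 of them was lower, and 2 with the replicate block. The 6, named in full, were CCND2, TFRC, CDK4, UBTF, POLR1A and EIF4E. PES1, needed for the large ribosomal subunit, was at 176, 171 and 179 CPM in KO and 129, 129 and 128 in mepazine-treated WT, with no overlap and a difference of 0.45 ± 0.0429 (edgeR adjusted p = 9.34e-09). ODC1, the first enzyme of polyamine synthesis, differed by 0.60 ± 0.0451, SRM, which makes spermidine, by 0.53 ± 0.0470 and the snoRNP core gene NOP56 by 0.45 ± 0.0412. Cytosolic ribosomal protein genes shared the direction, with 63 of 73 higher, none lower and 10 not past the test. Their differences were smaller, with a median of 0.22 and a range of 0.10 to 0.35, and the number called higher ran from 43 to 72 over the alternative settings. RPS14, for example, was at 453, 436 and 480 CPM in KO against 367, 355 and 356 in mepazine-treated WT.

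The stretch around an E-box (CACGTG), the motif bound by MYC with its partner MAX, is shown for SRM, the member of the list with the second smallest adjusted p. It is from RefSeq on GRCh38.p14, chr1:11060185-11060244, minus strand, with the E-box in capitals:
SRM: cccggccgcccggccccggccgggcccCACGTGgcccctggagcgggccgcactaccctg
CACGTG was found in 10 of the 50 list members with a RefSeq promoter (20%) and in 6.49% of all promoters.

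Genes under ATF4, the factor that raises amino acid synthesis and transport under stress, were also higher in KO for the most part, with 19 of 35 higher, 3 lower and a median of 0.13. ASNS, which makes asparagine, measured 68.2, 73.1 and 68.0 CPM in KO, 44.6, 52.4 and 42.3 in mepazine-treated WT and 85.6, 84.6 and 72.7 in WT vehicle. KO was above mepazine-treated WT without overlap, by 0.59 ± 0.0821 (edgeR adjusted p = 3.31e-05), and it overlapped with WT vehicle. PYCR1, the last enzyme of proline synthesis, differed by 0.47 ± 0.0518 and SHMT2, the mitochondrial enzyme that splits serine for folate carbon, by 0.37 ± 0.0441. The list's median against WT vehicle was -0.16 in KO and -0.24 under mepazine. DDIT4, an inhibitor of mTORC1, went the other way, at 96.8, 87.1 and 96.8 CPM in KO and 143, 133 and 140.2 in mepazine-treated WT. There KO was the group that departed from WT vehicle (132, 123 and 134 CPM), by -0.47 (edgeR adjusted p = 0.00552), while mepazine-treated WT did not pass (0.10). The remaining members lower in KO were the stress factor DDIT3 (-0.41 ± 0.113) and the amino acid carrier SLC38A2 (-0.27 ± 0.0491).

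ASNS is the textbook carrier of an element bound by ATF4, and its match to TGATGNAA is shown for that reason. The stretch is from RefSeq on GRCh38.p14, chr7:97872442-97872503, minus strand, with the match in capitals:
ASNS: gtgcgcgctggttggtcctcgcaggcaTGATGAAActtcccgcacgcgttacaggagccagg
The motif was present in 3 of 26 list promoters (11.5%) and in 3.19% of all promoters.

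Cholesterol synthesis showed the most uniform difference in the opposite direction. Of 27 genes tested, 25 were lower in KO than in mepazine-treated WT, none was higher, and GGPS1 (-0.13 ± 0.0586) and PMVK (-0.01 ± 0.0757) did not pass. The median was -0.82. HMGCS1, which feeds the mevalonate pathway, measured 211, 218 and 208 CPM in KO, 566, 585 and 551 in mepazine-treated WT and 211, 228 and 223 in WT vehicle. The mepazine libraries were far above both vehicle groups, which overlapped, and KO differed from mepazine-treated WT by -1.42 ± 0.0531 (edgeR adjusted p = 2.68e-16). INSIG1, the sterol-sensing retention protein of SREBP, differed by -1.39 ± 0.0552, and FDFT1, the first committed enzyme of sterol synthesis, by -1.02 ± 0.0441.

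Fatty acid synthesis followed, with 12 of 15 lower, 1 higher (ELOVL1, 0.25 ± 0.0457) and a median of -0.53. SCD, the desaturase that makes oleate, was at 967, 881 and 966 CPM in KO and 2704, 2642 and 2793 in mepazine-treated WT, with 1110, 1175 and 1163 in WT vehicle. All 3 groups were separate: KO was below WT vehicle by -0.29 (edgeR adjusted p = 0.000396) and mepazine-treated WT above it by 1.24, so that SCD gave a difference between the compared groups of -1.53 ± 0.0437 (edgeR adjusted p = 2.32e-19). The desaturase FADS1 differed by -0.91 ± 0.0434 and the synthase FASN by -0.74 ± 0.0565. Of 9 sterol efflux and LXR pathway genes, 4 were lower, led by NPC2 (-0.52 ± 0.0427) and NPC1 (-0.30 ± 0.0446), which carry cholesterol out of lysosomes. Of the 4, LPCAT3 (-0.114) lost its call in 5 of the 6 fits that left out a library of the compared groups.

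Lysosomal genes were lower in KO in about the same sense but less evenly. Of 43 genes for lysosomal enzymes and membrane proteins, 22 were lower, 20 did not pass and 1, SGSH (0.21 ± 0.0707), was higher, with a median of -0.19. SGSH lost its call without KO library a or c or mepazine-treated WT library b or c (0.18 to 0.21, edgeR adjusted p = 0.051 to 0.102) and with library totals (0.15). NEU1, the lysosomal sialidase, measured 16.8, 17.1 and 17.6 CPM in KO and 37.2, 33.1 and 36.5 in mepazine-treated WT, without overlap and by -1.05 ± 0.0650 (edgeR adjusted p = 2.08e-12). TPP1, a lysosomal peptidase, differed by -0.68 ± 0.0564, and LIPA, which frees cholesterol from its esters, by -0.48 ± 0.0460. CTSD, the aspartic protease cathepsin D, did not pass (-0.19 ± 0.0764, edgeR adjusted p = 0.0714).

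The MiT/TFE list, named for the transcription factors that govern lysosome genes, and its folliculin and Rag GTPase partners had 8 of 15 members lower and 1, MITF (0.31 ± 0.0916), higher, whose call was lost without KO library a (0.18, edgeR adjusted p = 0.143). GPNMB, a membrane glycoprotein known as a target of these factors, was at 53.5, 51.7 and 56.7 CPM in KO, 276, 246 and 291 in mepazine-treated WT and 48.8, 52.8 and 54.8 in WT vehicle. KO and WT vehicle overlapped, and KO was below mepazine-treated WT by -2.33 ± 0.0753 (edgeR adjusted p = 2.80e-13). FNIP1 and FLCN, the folliculin complex, differed by -0.87 ± 0.0647 and -0.78 ± 0.0657, and the GTPase RRAGC by -0.74 ± 0.0481. TFEB (0.07 ± 0.102) and TFE3 (0.08 ± 0.0477) mRNA did not pass. The vacuolar proton pump had 7 of 17 subunits lower and 1 higher (ATP6V0E2, 0.28 ± 0.0642), with ATP6V1C1 at -0.39 ± 0.0501. Autophagy genes had 9 of 28 lower and 2 higher, beside 16.2% lower and 16.3% higher of all genes tested. Among the lower ones BNIP3L, a receptor for mitochondria, differed by -0.55 ± 0.0597.

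NEU1, RRAGC and FNIP1 carry TCACGTG, the form of the E-box found in the CLEAR element of MiT/TFE targets, and are shown as the called members of the lysosomal and MiT/TFE lists with the smallest adjusted p among those with a match. The stretches are from RefSeq on GRCh38.p14, all minus strand, at chr6:31862915-31862975 for NEU1, chr1:38859851-38859911 for RRAGC and chr5:131797078-131797138 for FNIP1, with the match in capitals (in RRAGC and FNIP1 it reads on the other strand, and FNIP1 has 2 matches, of which 1 is marked):
NEU1: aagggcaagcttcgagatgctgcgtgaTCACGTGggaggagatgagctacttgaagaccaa
RRAGC: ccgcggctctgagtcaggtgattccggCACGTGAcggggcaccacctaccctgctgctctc
FNIP1: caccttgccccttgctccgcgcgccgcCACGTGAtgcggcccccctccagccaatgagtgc
TCACGTG, which contains CACGTG, was present in 5 of 14 promoters of the MiT/TFE list (35.7%), 9 of 25 lysosomal (36%), 4 of 12 proton pump (33.3%) and 2 of 26 autophagy promoters (7.69%), beside 3.38% of all promoters. Of the 9 lysosomal genes with the motif, 5 were called, and MCOLN1 (-0.20 ± 0.0964) and CTSD were among those that were not. The whole lysosomal list had a similar share called, with 22 lower and 1 higher of 43. For sterol genes the SRE-like motif TCACNCCAC was found in 1 of 19 cholesterol promoters (5.26%, that of SREBF2) and in 0 of 14 fatty acid promoters, beside 0.875% of all. In TEAD-dependent genes GGAATG was found in 5 of 15 promoters (33.3%), beside 11.9% of all. These matches describe letters in a window and say nothing of binding. In every motif count here, list members were counted whether called or not. The comparison was with all RefSeq promoters and not with those of the genes tested. These shares therefore do not bear on the differences between the groups.

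**Figure D3:**
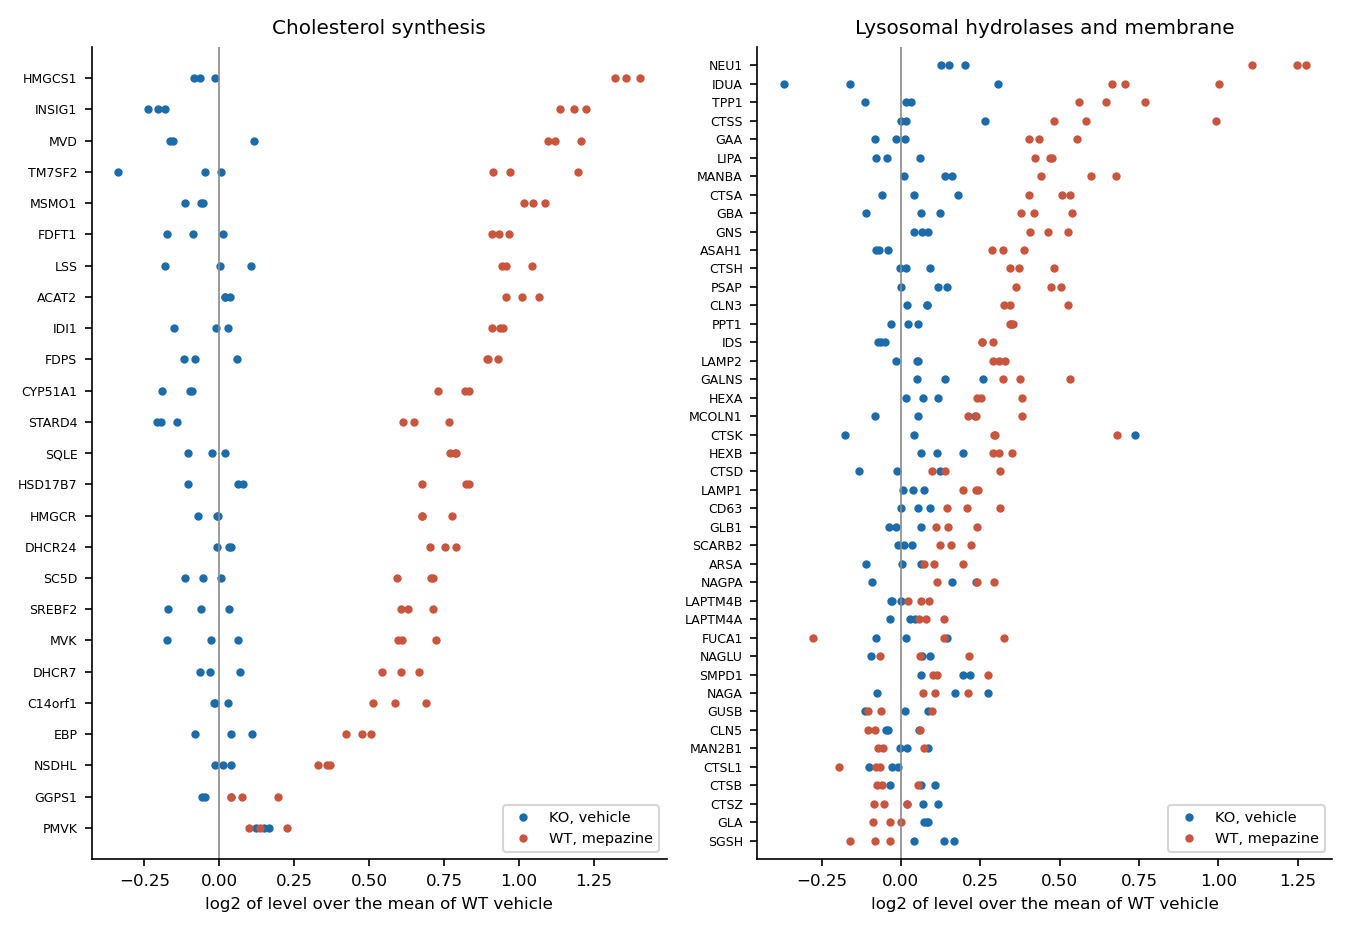
Level of each gene in each library of KO vehicle and mepazine-treated WT as the log2 over the mean of WT vehicle, for cholesterol synthesis (25 of the 27 genes tested are shown) and lysosomal genes (43 genes). For cholesterol synthesis the KO libraries lie around 0 and those of mepazine-treated WT stand clear to the right in all genes shown but GGPS1 and PMVK, while the lysosomal genes run from NEU1, far to the right under mepazine, to genes at which the groups overlap.

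The matrix genes FN1 and TNC were higher in KO than in mepazine-treated WT and than in WT vehicle. FN1, the matrix protein fibronectin, measured 2122, 1936 and 1924 CPM in KO, 1199, 1298 and 1155 in mepazine-treated WT and 1482, 1441 and 1365 in WT vehicle. The groups were separate, with KO above WT vehicle by 0.48 (edgeR adjusted p = 3.72e-06) and mepazine-treated WT below it by -0.23 (edgeR adjusted p = 0.00158), and they were 0.71 ± 0.0516 apart. TNC, the matrix glycoprotein tenascin C, differed by 0.74 ± 0.0742 between the compared groups, 0.49 for KO and -0.24 for mepazine against WT vehicle, where the call under mepazine was lost without mepazine-treated WT library b (-0.19, edgeR adjusted p = 0.118) or WT vehicle library a (-0.18, edgeR adjusted p = 0.152). Over the list of 26 mesenchymal and TGF-beta response genes, 12 were higher in KO, 5 lower and 9 not past the test, with a median of 0.10. COL5A1 (-0.90 ± 0.210) and COL5A2 (-0.99 ± 0.221), collagen V chains, were among the 5 lower in KO, at levels of 0.813 to 1.30 CPM there.

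Of 23 YAP-TEAD targets, 10 were higher and 3 were lower in KO, with a median of 0.07. The shares of all genes tested were 16.3% higher and 16.2% lower. Listed whole, the 3 lower members were PTPN14, AMOTL1 and YAP1, which encodes YAP itself. Without letter b in every group none of the 3 was called lower. CTGF (CCN2), a matricellular protein used as a YAP readout, was at 2.83, 3.25 and 2.79 CPM in KO, 0.849, 0.945 and 0.874 in mepazine-treated WT and 1.08, 1.13 and 0.952 in WT vehicle. KO was high and the WT groups lay close together (-0.25 under mepazine, edgeR adjusted p = 0.536), and the difference was 1.73 ± 0.230 (edgeR adjusted p = 1.95e-06). Its relative CYR61 (CCN1) differed by 0.52 ± 0.0533, the ecto-enzyme NT5E by 0.72 ± 0.0743 and the receptor kinase AXL by 0.55 ± 0.0589, whereas AMOTL2 did not pass (0.08 ± 0.0436).

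Keratinocyte genes differed along several lines. LAMA3 and LAMB3, laminin chains of the basement membrane, were higher in KO by 0.67 ± 0.0423 and 0.36 ± 0.0449. LAMA3 measured 572, 574 and 533 CPM in KO and 345, 370.0 and 343 in mepazine-treated WT. The whole list of basal and hemidesmosome genes was mixed, with 9 of 22 higher and 5 lower, TP63 (-0.27 ± 0.0432), the master factor of the basal layer, among the lower ones. KRT6A, a keratin of wounded skin, was at 652, 620.5 and 699.8 CPM in KO, 393, 370.5 and 408 in mepazine-treated WT and 692, 666 and 694 in WT vehicle. KO stood in or near the range of WT vehicle and above mepazine-treated WT, by 0.75 ± 0.0451 (edgeR adjusted p = 1.13e-12). KRT17 (0.50 ± 0.0433) and KRT14 (0.50 ± 0.0644), keratins of activated and basal cells, were higher too. KRT5, the partner of KRT14, did not pass (0.14 ± 0.0790, edgeR adjusted p = 0.194). Among the 5 stress keratins, KRT6A, KRT6C and KRT17 were called higher, while KRT6B and KRT16 did not pass. Reads may be shared between KRT6A and its near-identical copies KRT6B and KRT6C. Of 6 simple epithelium markers tested, 3 were higher in KO, namely EPCAM, KRT8 and KRT18, while KRT7, KRT19 and MUC1 did not pass. The differences of this list ran from -0.065 to 0.662, with a median of 0.077, so a higher sum does not stand for every member. The keratins KRT8 (0.57 ± 0.0385) and KRT18 (0.66 ± 0.0426) of simple epithelium were higher in KO, and the summed markers of that list were 5.60e+03 to 5.62e+03 CPM of all counts in KO and 4.57e+03 to 4.78e+03 in mepazine-treated WT.

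Of 28 terminal differentiation genes tested, 8 were higher in KO, 3 were lower and 17 did not pass. Over all genes tested the shares were 16.3% higher and 16.2% lower. The list's median of -0.04 turned to 0.05 without KO library b and to 0.04 and 0.01 without mepazine-treated WT library a and c. The kallikrein proteases KLK10 (0.55 ± 0.0441) and KLK5 (0.38 ± 0.0481) and the transcription factor GRHL3 (0.54 ± 0.0794) were higher. The 3 lower ones, listed whole, were the envelope proteins IVL (-0.64 ± 0.0959) and SCEL (-0.60 ± 0.0974) and the lipid transporter ABCA12 (-0.60 ± 0.0904). The early keratin KRT10 did not pass (0.17 ± 0.0794). Of 11 skin antimicrobial and acute phase genes, 5 were higher in KO and none was lower. The count of 5 fell to 2 without KO library a or mepazine-treated WT library a or c, and to 3 without mepazine-treated WT library b, with DESeq2 or with limma-voom, and without mepazine-treated WT library a 1 gene was lower. SAA1, an acute phase protein, was at 8.46, 7.03 and 7.03 CPM in KO and 4.65, 4.85 and 4.74 in mepazine-treated WT, by 0.66 ± 0.129 (edgeR adjusted p = 0.000282), with 4.61, 5.32 and 4.47 in WT vehicle.

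The largest differences included genes from both origins. MMP9, the gelatinase that cuts basement membrane collagen, measured 8.74, 8.46 and 8.94 CPM in KO, 2.14, 2.53 and 2.85 in mepazine-treated WT and 9.68, 7.44 and 8.99 in WT vehicle. Vehicle groups overlapped, mepazine-treated WT was low, and KO was higher by 1.81 ± 0.132 (edgeR adjusted p = 6.33e-11). BMPER, a secreted regulator of BMP signalling, showed the same arrangement (1.64 ± 0.160). FNDC1, which encodes a protein with fibronectin type III domains, was instead a gene of KO cells: 116, 71 and 117 counts in KO, 0 in all 3 mepazine-treated WT libraries and 1 count over WT vehicle. Set against a floor of 3 counts over the mepazine group, its level was at least 101-fold higher in KO. TGM2, tissue transglutaminase, was at 7.10, 5.55 and 5.39 CPM in KO, 1.99, 2.02 and 1.98 in mepazine-treated WT and 2.94, 2.45 and 2.14 in WT vehicle. Only KO passed the test against WT vehicle for TGM2 (1.25, edgeR adjusted p = 3.56e-05, and -0.34, edgeR adjusted p = 0.168, for mepazine), and the compared groups were 1.59 ± 0.159 apart. The reductase MSRB3 (1.46 ± 0.342) and the phosphodiesterase PDE1C (1.71 ± 0.274) were likewise called against WT vehicle in KO, but MSRB3 and PDE1C each lost that call in 5 of the 6 fits that left out a library. TMEM200A, a membrane protein gene, moved from WT vehicle in both groups, by 0.99 in KO and -1.20 under mepazine, giving 2.19 ± 0.208. For TMEM200A the call in KO was lost without KO library a or b or WT vehicle library a or b (0.93 to 0.96, edgeR adjusted p = 0.0652 to 0.125). MIR100HG, a long non-coding RNA, varied widely in KO, at 4.63, 7.32 and 1.76 CPM against 0.553, 0.644 and 0.322, and its call (3.13 ± 0.868, edgeR adjusted p = 0.0186) was lost without KO library b or mepazine-treated WT library a or c. Of the 12 highest, 2 carry no gene symbol in the table and are not described.

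Among called genes with at least 2 CPM in the higher group and no overlap, the 12 lowest in KO were 1.24 to 2.46 higher under mepazine than in WT vehicle on the log2 scale, all but CYP4B1 past the test. They were chosen as high in these same mepazine-treated WT libraries against KO, so this rise follows in part from the choice. Besides GPNMB and SCD, FAM49A (CYRIA), an inhibitor of RAC signalling to actin, was at 1.60, 1.48 and 2.33 CPM in KO and 8.89, 8.59 and 10.2 in mepazine-treated WT, by -2.33 ± 0.166 (edgeR adjusted p = 5.11e-10). PSG5, a pregnancy-specific glycoprotein, differed by -2.04 ± 0.239, PRODH, which breaks down proline, by -1.78 ± 0.373, and BLNK, an adaptor known from B cell signalling, by -1.73 ± 0.242. PADI3 (-1.69 ± 0.334), a deiminase of hair follicle and epidermis, and KLHL24 (-1.53 ± 0.154), which targets keratin 14 for turnover, were also in this group, as were CLEC2B (-1.60 ± 0.208), METTL7A (TMT1A, -1.52 ± 0.279) and AHNAK2 (-1.45 ± 0.131). CYP4B1 (-1.45 ± 0.458, edgeR adjusted p = 0.0286) lost its call in 4 of the 6 fits that left out a library of the compared groups, namely KO a or b or mepazine-treated WT a or c. Against WT vehicle none of these genes other than SCD passed the test in KO.

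A few genes had moved the same way from WT vehicle in both groups, and for these the size of the difference is of interest. The naming rule took 6 of them. GBP1, an interferon-inducible GTPase, measured 9.42, 12.2 and 10.0 CPM in KO, 10.7, 10.2 and 11.3 in mepazine-treated WT and 6.66, 6.68 and 5.28 in WT vehicle. KO and mepazine-treated WT overlapped and both were above WT vehicle, by 0.75 and 0.78, and the difference between them was -0.03 with a 95% interval of -0.23 to 0.17. ARSI, an arylsulfatase, gave 0.03 (95% interval -0.12 to 0.17) and the urokinase gene PLAU gave -0.08 (95% interval -0.17 to 0.02), with 0.39 and 0.26 in KO and 0.36 and 0.34 under mepazine against WT vehicle. The calls of ARSI and PLAU in KO were each lost in 3 of the 6 fits that left out a library, KO a and WT vehicle b among them. The protease PRSS23 differed slightly, by -0.16 ± 0.0430. LCP1, an actin bundler, was higher in KO (27.9, 24.96 and 25.4 CPM) than in mepazine-treated WT (18.4, 20.9 and 19.3), by 0.42 ± 0.0668 (edgeR adjusted p = 2.39e-05). SQSTM1, the autophagy receptor p62, was lower in KO (229, 233 and 234 CPM) than in mepazine-treated WT (396, 416 and 425), by -0.83 ± 0.0404 (edgeR adjusted p = 1.92e-14). The groups share the WT vehicle libraries, so that the same deviation of those libraries enters both sides. The converse group of genes on opposite sides of WT vehicle included SCD, FOSL1 and TMEM200A, described above, AKAP2 (0.39 in KO and -0.46 under mepazine), an anchor of protein kinase A, and PCMTD1 (-0.26 and 0.28). For PCMTD1 the call in KO was lost without KO library a or c or WT vehicle library b or c (edgeR adjusted p = 0.0629 to 0.209).

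**Figure D4:**
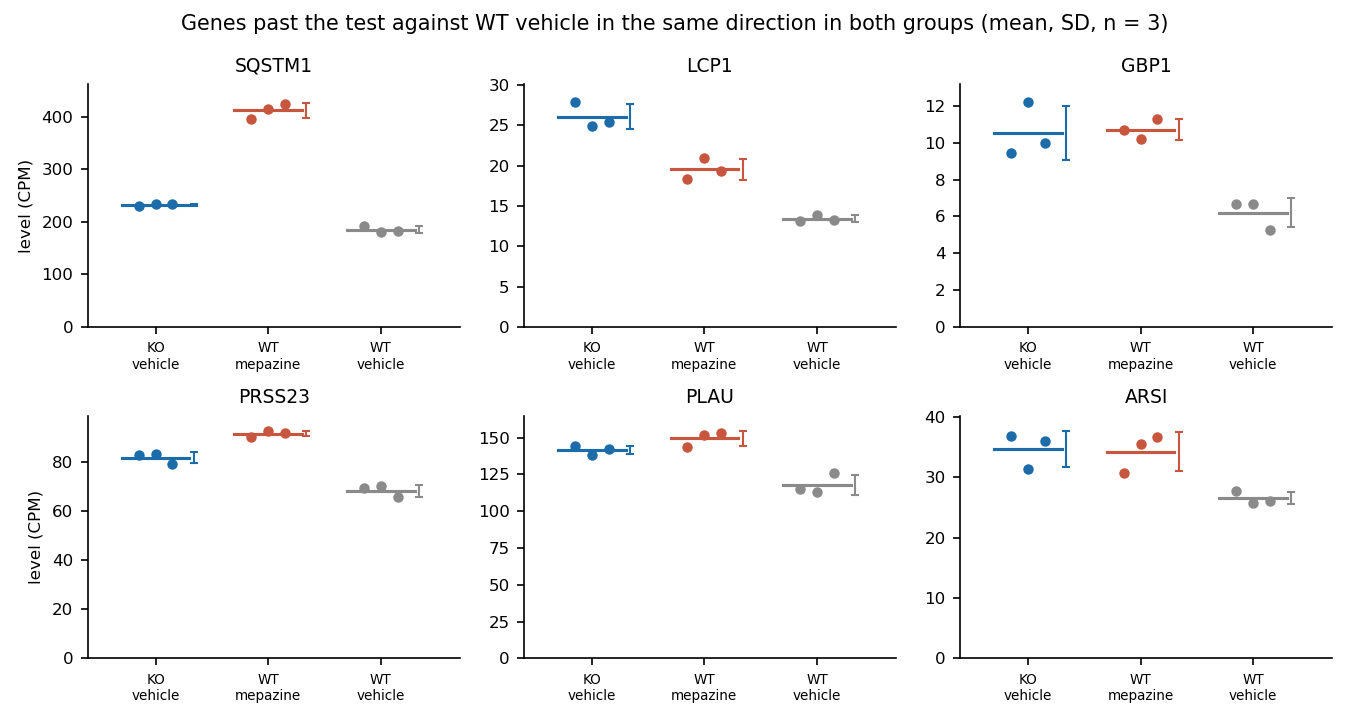
Levels in CPM of 6 genes that passed the test against WT vehicle in the same direction in KO and in mepazine-treated WT, by library, with means as lines and SD as bars (n = 3). GBP1, PLAU and ARSI overlap between KO and mepazine-treated WT, whereas SQSTM1 and LCP1 do not.

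The remaining lists were less uniform, and their counts stand beside 16.3% higher and 16.2% lower of all genes tested. NRF2 targets, the antioxidant genes, had 14 of 28 lower in KO and 3 higher, with a median of -0.15. Without mepazine-treated WT library a the counts were 9 and 1. The ferritin chains led them by adjusted p: FTH1 was at 3321, 3179 and 3679 CPM in KO and 5234, 4813 and 5486 in mepazine-treated WT (-0.61 ± 0.0642, edgeR adjusted p = 5.70e-07), and FTL differed by -0.51 ± 0.0633. The classical target NQO1 was at 0.11 ± 0.0423, and its call was lost whichever of the 6 libraries was left out (edgeR adjusted p = 0.0537 to 0.124). Iron handling genes, which include the ferritins, had 5 of 10 lower and 1 higher (0 without mepazine-treated WT library c), and the receptor TFRC did not pass (-0.10 ± 0.0435). AHR pathway genes had 4 of 10 lower, with CYP1A1 at -0.81 ± 0.128 and CYP1B1 at -0.26 ± 0.0551, and 2 higher, NQO1 and SERPINB2. Of the 4 lower ones, AHR itself (-0.155) lost its call in 4 of the 6 fits that left out a library of the compared groups. SERPINB2, which encodes plasminogen activator inhibitor 2, was at 324, 329 and 291 CPM in KO, 109.6, 129.7 and 111 in mepazine-treated WT and 299.6, 299.4 and 309 in WT vehicle. The vehicle groups overlapped and mepazine-treated WT was low, so that KO was 1.43 ± 0.0591 higher (edgeR adjusted p = 2.39e-14). Heat shock chaperones had 9 of 18 higher and 1, HSPB8 (-1.10 ± 0.149), lower, led by HSPA8 (0.39 ± 0.0413). Endoplasmic reticulum chaperones had 7 of 21 higher and 2 lower (1 without KO library a or b, 0 without mepazine-treated WT library a), with HSPA5 at 0.20 ± 0.0389. Hypoxia and glycolysis genes had 11 of 28 higher and 4 lower, with LDHA, which makes lactate, at 0.32 ± 0.0399. The 4 lower ones, named in full, were ALDOC, ADM, PFKFB4 and PFKFB3, and the differences of the list ran from -1.37 to 0.75. Metallothionein and zinc genes had 3 of 7 higher, led by MT2A (0.40 ± 0.0468), and 2 lower (1 without KO library a or b or mepazine-treated WT library b or c).

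Cell cycle genes showed small differences. Of 36 G1/S genes, 9 were higher and none lower, beside 16.3% higher and 16.2% lower of all genes tested. RRM2, a ribonucleotide reductase subunit, was at 0.21 ± 0.0431. Of 36 G2/M genes, 6 were higher and 4 lower, with a median of -0.01 that was 0.01 without KO library c. The G2/M shares lie near or below those of all genes tested. The G2/M counts were 3 and 11 with library totals, and the lower count was 7 without KO library b. Interferon-stimulated genes had 6 of 39 higher and 6 lower, a share near that of all genes tested on each side. Higher were, for example, the sensor DDX58 (RIGI, 0.34 ± 0.0588) and the synthetase-like OASL (0.50 ± 0.0921), and the 6 lower ones, named in full, were TRIM22, STAT2, PARP14, SAMD9L (-0.35 ± 0.0807), PARP9 and IFIT2. The lower count was 3 without KO library b or mepazine-treated WT library a or c. The 22 p53 targets had 3 higher and 5 lower, also near the shares of all genes. The lower count was 3 without KO library a or mepazine-treated WT library a or b, and 9 with library totals. TP53INP1, a stress-induced partner of p53, differed by -1.82 ± 0.316, at 0.335 to 0.479 CPM in KO and 1.07 to 1.93 in mepazine-treated WT, and CDKN1A, the inhibitor p21, did not pass (-0.11 ± 0.0631).

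**Figure D5:**
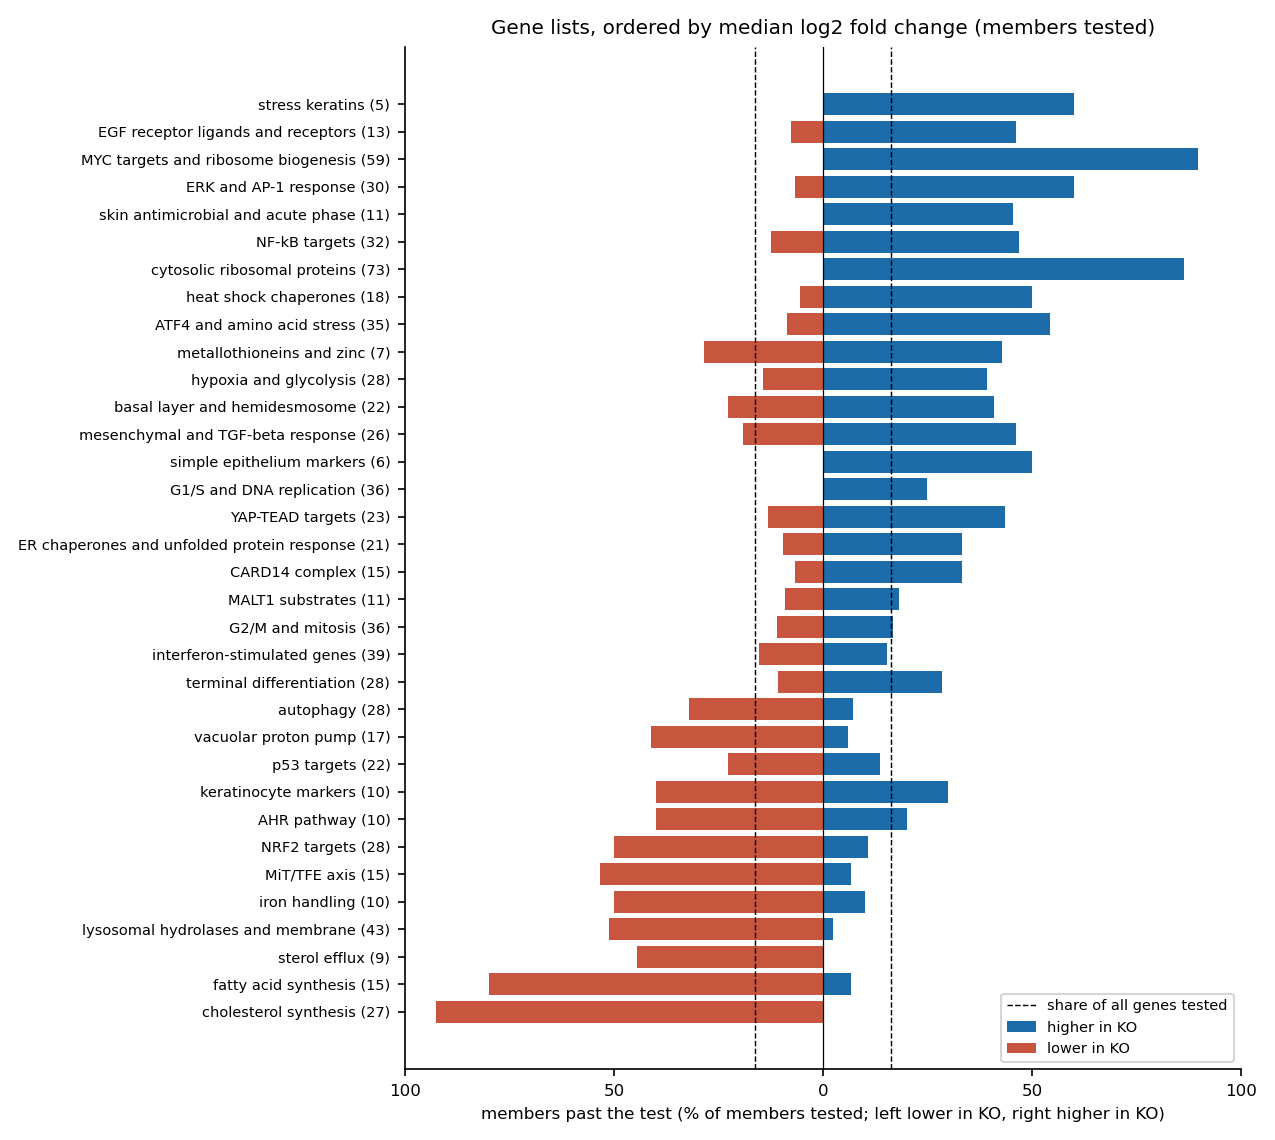
Share of each gene list past the test, in percent of its members tested, with members higher in KO to the right and lower in KO to the left, in order of the median log2 fold change. Dashed lines mark the shares of all genes tested, 16.3% higher and 16.2% lower, and the longest bars are cholesterol synthesis on the left and MYC targets with ribosome biogenesis on the right.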

How the data were processed

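RNA of HaCaT cells was sequenced in 15 libraries of 5 groups, 3 each, with groups and letters taken from the sample titles. The deposited table gives unnormalised counts of reads by gene symbol, with a column for each library. A directional kit was used on total RNA, per the labels' protocols. DESeq2, MACS2, FastQC and hg19 are named, without roles, per the submitters' processing notes. The aligner, counter, annotation and strand setting were not given in the sources used here. Reads of overlapping, antisense or near-identical genes (KRT6A and its copies, SAA1 and SAA2, PSG5 and its family, metallothioneins, FTH1 and ribosomal protein genes with their pseudogenes, AKAP2 with its neighbour) may therefore be shared. With the strand setting unknown, reads of antisense pairs may not have been separated in the counts.

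The main test was the quasi-likelihood test of edgeR 4.0.16 in R 4.3.3. A minimum count of 10 in filterByExpr kept 14971 of 28518 symbols, and 5618 symbols had 0 counts throughout. Counts of the 15 libraries were fitted together, robustly, with TMM factors and a term for group alone, so that groups share an estimate of the spread. Contrasts were two-sided and called at an adjusted p under 0.05 (Benjamini-Hochberg, across the tested genes). Intervals and floors of 3 counts cover the spread between libraries and counting error only. Replicate pairs differed by more than sampling noise, so each was kept as its own sample. The test was checked on simulated data, where 46.7% of true changes of 0.25 on the log2 scale and 83.3% of those of 0.5 were called. Far fewer genes were changed there than were called here, so these shares need not hold for the data. A gene that did not pass may still differ by a small amount. Alternatives were DESeq2 1.42.0, limma-voom (limma 3.58.1), other scalings and filters, the compared groups alone, a block for the letter, and leaving out libraries.

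Genes were named by a rule: CARD14, MYC, MALT1 and BCL10, then the 12 highest and 12 lowest changes among called genes with at least 2 CPM in the higher group and no overlap. For each list with at least 3 called members it took the 4 with the smallest adjusted p in the majority direction, and it took 6 genes each on opposite sides and on the same side of WT vehicle. Not all of these are printed, and some genes are not reported here. The comparison, the lists and the rule were chosen with earlier results of these data known. Of the tested symbols, 12355 are current and 2616 are not, and values stand under the symbols as given. Promoter sequences came from RefSeq on GRCh38.p14, with the first listed start per symbol, and 250 bases before it were searched on both strands. No coordinates of hg19 were used.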

Additional observations from a re-analysis of the deposited data

How the results depend on the processing

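Every alternative kept the direction of every named gene that passed the test, and the number of genes called between KO and mepazine-treated WT stayed between 3843 and 5525 beside 4859. DESeq2 called 4450, of which 4244 were among the 4859, and limma-voom 4806, of which 4757 were. At least 2-fold differences numbered 167, beside 257, where at least 1 CPM in 3 libraries was required, a filter that tests fewer genes. Genes higher in KO numbered 1613, beside 2433, with library totals and no scaling factor, a setting that moved the median of all genes from -0.03 to -0.08. For KO against WT vehicle the count of 56 became 103 with the replicate block, 33 without letter b in every group (a setting chosen after seeing the data) and 22 to 51 when single libraries were left out, and the cause was not tested. Mepazine-treated WT against WT vehicle gave 2426 to 4267 genes, beside 3588.

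With the letter as a replicate block, 5525 genes were called between KO and mepazine-treated WT, 4839 of them shared with the 4859. Deviations of same-lettered libraries correlated at 0.041, 0.077 and 0.064, and the letters were not used as pairs in the main test. Between these groups each library correlated best with its own letter, a hint from the data and not from the design. A principal component analysis of KO, mepazine-treated WT and WT vehicle gave a second axis with 12.8% of the variance. On this axis library b lay lowest in each group, at -24.77, -15.97 and -2.59. Whether the letters mark shared experiments was not tested. Over all named genes and alternatives, 2433 values kept their side of the threshold, 58 lost a call and 3 gained one. Other printed list members lost calls when 1 library was left out, as given in the results. IKBKB, CHUK, IRF1, RC3H1, ERBB3, SGSH, MITF and NQO1 were among them. Interferon-stimulated genes lower in KO were too, with 3 beside 6 called without KO library b or mepazine-treated WT library a or c. MIR100HG and CYP4B1 lost theirs with limma-voom too (adjusted p = 0.0972 and 0.0666), and CYP4B1 without a filter (adjusted p = 0.0656). CARD10 (0.14, adjusted p = 0.0561) lost its call with library totals, as did CHUK, SGSH and NQO1, and IRF1 (-0.16, adjusted p = 0.054) with DESeq2. Left-out libraries gave log2 fold changes of 2.62 to 3.53 for MIR100HG and -1.74 to -1.18 for CYP4B1. The median of the MALT1 substrate list was -0.01 without scaling, beside 0.05, and the 3 YAP-TEAD targets lower in KO became 0 without letter b. At 21450115 or more counts per library, genes under about 1 CPM, such as IL6, had wide intervals (-0.33 to 1.43).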
